A study of Arabidopsis thaliana with 12 samples.

Results

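CML38 (AT1G76650), ZAT10 (AT1G27730) and AT4G24110 are 3 Arabidopsis thaliana genes described as responsive to wounding or low oxygen,, each measured by 1 probe set of 22746 on the arrays, which name 13356 genes with a probe set of their own. The members are the probe sets annotated to these loci, and ZAT10 is listed under its other name STZ. The genes were chosen by measured signals: CML38 and AT4G24110 had differed between L-AOPP and mock, and ZAT10 had differed between the shoot apical meristem part (SAM) and whole plants. Those 3 differences are given here as descriptions, with no test.

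The RNA came from the Columbia ecotype Col-0 on 12 arrays, 3 in each of 4 groups. The inhibitor L-AOPP (2-aminooxy-3-phenylpropionic acid) blocks phenylalanine ammonia-lyase, and the series text takes it as an inhibitor of auxin synthesis. IAA is the natural auxin indole-3-acetic acid. Dissected SAM was taken from plants on medium with 50 µM L-AOPP, with 50 µM L-AOPP and 10 nM IAA, or with DMSO as the mock (0.1% by the series text), and undissected whole plants came from mock medium. All plants grew under continuous light at 21 °C and were wild type. The sample labels give an age of 4 days and the series text 7 days. The SAM was excised under a microscope with a small knife, so every SAM sample was cut and no whole plant was, and tissue and dissection cannot be told apart. No DMSO content is given for the medium with L-AOPP.

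Calmodulin-like proteins such as CML38 bind calcium ions and pass calcium signals to other proteins. CML38 transcripts are induced by wounding and by low oxygen, and the protein is found in the cytoplasmic granules that form when oxygen is short. ZAT10 encodes a zinc finger repressor of transcription that is induced within a short time by wounding, salt, cold, drought and strong light. Plants sense low oxygen through ethylene response factors of group VII, which are degraded while oxygen is present and otherwise switch on genes of fermentation and sugar use. The gene table used here gives AT4G24110 no name.

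Values are MAS5 signals on a linear scale, with array medians between 166.1 and 193.05 and no detection calls. A signal below 19.4, the 20th percentile over all arrays, is called below the floor here. On mock SAM replicate 3 the probe set for 25S rRNA read only 164, while the remaining 11 arrays read between 5170 and 10331. The GAPDH ratio, the log2 signal of its 3' control minus that of its 5' control, is a sign of RNA integrity and was 0.94 to 1.01 in whole plants, 1.39 to 2.10 in mock SAM, 1.39 to 1.63 with L-AOPP and 1.24 to 1.36 with L-AOPP and IAA. The array annotation named 4 of 16 listed shoot meristem genes (CLV3, UFO, LAS and PHV). In the SAM all 4 were higher than in whole plants (limma adjusted p 0.000741 or lower), where 42.6% of all tested probe sets passed as higher. CLV3 did not pass with the GAPDH ratio as a covariate (limma, log2 2.07, adjusted p 0.281). The ratio in whole plants did not overlap with that of any SAM group, nor did L-AOPP with IAA overlap with the other SAM groups. In those comparisons a fit with this covariate cannot tell RNA integrity from group.

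CML38 had its highest group mean in SAM grown with L-AOPP. There its signals were 249.7, 318.3 and 341.9, against 63.5, 77.6 and 122.8 in mock SAM. The groups did not overlap, and every L-AOPP array lay above every mock array. The mean was 303 ± 47.9 (SD, n = 3) with L-AOPP and 88.0 ± 31.0 in mock, a 3.55-fold difference (log2 1.83 ± 0.46 SE). Leaving out any 1 array gave log2 differences from 1.62 to 2.10, the array with low 25S rRNA signal included. This is the difference that chose the gene. Over all 15922 tested probe sets, 1.22% passed as higher with L-AOPP, and 10.6% lay higher with no overlap.

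With IAA added to L-AOPP, the CML38 signals spread 5.26-fold. Its signals were 387.4, 73.6 and 182.9 on replicates 1 to 3, so replicate 1 lay above every L-AOPP array and replicate 2 within the mock range. The mean of 215 ± 159 was 1.73-fold lower than with L-AOPP alone, with a log2 difference of -0.79 and a 95% interval from -1.77 to 0.18 (adjusted p 0.594). In the IAA group, leaving out replicate 1 gave -1.37 and leaving out replicate 2 gave -0.18. Against mock SAM the log2 difference was 1.04, with an interval from 0.06 to 2.01 (adjusted p 0.247). The comparison with L-AOPP alone shares the L-AOPP arrays with the one that chose the gene, and that with mock SAM shares the mock arrays. The difference from mock SAM was 1.30 without mock SAM replicate 3 and 0.46 without L-AOPP with IAA replicate 1. It passed without L-AOPP with IAA replicate 2 (log2 1.65, adjusted p 0.0465). In the 2 comparisons 0.86% and 3.04% of tested probe sets passed.

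Whole plants had CML38 signals of 167.3, 169.8 and 73.1, which overlapped with mock SAM (log2 -0.59, 95% interval -1.57 to 0.38, adjusted p 0.265; -0.86 without mock SAM replicate 3 and -0.39 to -0.99 over all arrays left out in turn). By mean signal the order of the groups was therefore L-AOPP, L-AOPP with IAA, whole plants and mock SAM. Each pair of neighbours in that order overlapped. Ranked among all probe sets of its array, CML38 was at percentile 56.2, 61.7 and 63.1 on the L-AOPP arrays and 35.2, 38.5 and 44.2 on the mock SAM arrays.

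**Figure D1:**
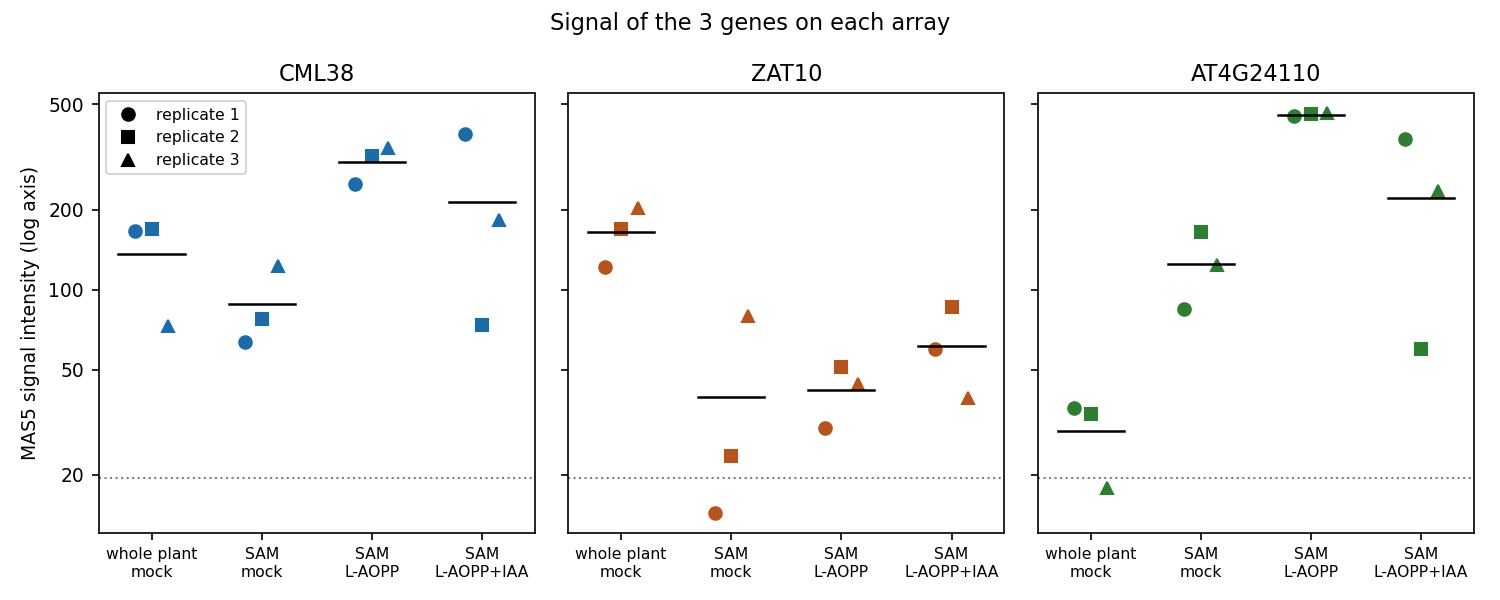
MAS5 signal intensity (log axis) of CML38, ZAT10 and AT4G24110 on each of the 12 arrays, with a symbol for each replicate number, a bar at the mean of 3 arrays and a dotted line at the floor of 19.4. CML38 and AT4G24110 are high on all 3 L-AOPP arrays and spread widely with IAA, while ZAT10 is highest in whole plants. The high signals with L-AOPP and in whole plants belong to the differences that chose the genes.

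AT4G24110 had the tightest L-AOPP group of the 3 genes. Its signals with L-AOPP were 451.4, 460.2 and 462.5, against 84.7, 165.3 and 124.0 in mock SAM. The groups did not overlap, and the highest L-AOPP array was 1.02 times the lowest. The means were 458 ± 5.86 (SD, n = 3) and 125 ± 40.3, a 3.81-fold difference (log2 1.93 ± 0.48 SE) that ranged from 1.68 to 2.16 when any 1 array was left out. This is likewise the difference that chose the gene. The summed signal of the 4 shoot meristem genes moved with it and with that of CML38, from 1534 to 2021 in mock SAM to 1344 to 1389 with L-AOPP, while 0 of the 4 passed (limma, 3 at an unadjusted p under 0.05, all lower). Most of this sum is PHV, with a mock SAM mean of 1322 against 143 for CLV3, 145 for UFO and 142 for LAS. The summed signal of the 5 named of 20 listed photosynthesis genes was 42212 to 44303 in mock SAM and 39291 to 41505 with L-AOPP. That of the 2 named of 14 listed root genes was 44.3 to 57.4 and 15.9 to 65.5. The part of these and of the GAPDH ratio in both differences was not tested.

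With L-AOPP and IAA the AT4G24110 signals were 369.6, 60.0 and 235.9 on replicates 1 to 3. All 3 lay below every L-AOPP array, while 9.06% of tested probe sets lay lower with no overlap, and replicate 2 lay below every mock SAM array. The log2 difference from L-AOPP alone was -1.40 ± 0.48 SE (95% interval -2.42 to -0.38), which did not pass over all probe sets (unadjusted p 0.0105, adjusted p 0.240, limma). It passed without L-AOPP with IAA replicate 1 (log2 -1.94, adjusted p 0.0487), and it shares the L-AOPP arrays with the comparison that chose the gene. Against mock SAM the log2 difference was 0.53 (95% interval -0.49 to 1.55, adjusted p 0.610), and it was -0.01 without L-AOPP with IAA replicate 1.

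AT4G24110 was 4.31-fold higher in mock SAM than in whole plants, where its signals were 35.8, 34.0 and 17.8, the last of them below the floor. The log2 difference of 2.11 ± 0.48 SE passed (adjusted p 0.00111), and 42.6% of tested probe sets passed as higher in this comparison. It passed without any 1 array (log2 1.78 to 2.36, adjusted p 0.00144 to 0.00773) and did not pass with the GAPDH ratio as a covariate (log2 2.61, adjusted p 0.0564). The median of all tested probe sets was 0.21 in this comparison. By mean signal the order was L-AOPP, L-AOPP with IAA, mock SAM and whole plants, and of the neighbouring pairs only L-AOPP with IAA and mock SAM overlapped. In bulk tissue, fewer cells that express a gene and less RNA per cell cannot be told apart.

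ZAT10 had its highest signals in whole plants. Its signals were 121.7, 169.2 and 203.2 in whole plants and 14.4, 23.5 and 79.9 in mock SAM, with replicate 1 of mock SAM below the floor. The groups did not overlap, as in 26.2% of tested probe sets that lay lower, and the mock SAM arrays spread 5.55-fold, of which the highest was replicate 3, the array with the low 25S rRNA signal. The difference that chose the gene was log2 -2.42 ± 0.50 SE, -3.13 without that array and -2.28 with signals raised to the floor. In this comparison 25% of tested probe sets passed as lower.

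ZAT10 was dim in every SAM group. The values were 30.2, 50.9 and 44.1 with L-AOPP and 59.8, 86.0 and 39.0 with L-AOPP and IAA, and both sets overlapped with mock SAM. The log2 difference was 0.44 for L-AOPP against mock (95% interval -0.62 to 1.51, adjusted p 0.713) and 0.52 for added IAA (-0.54 to 1.59, adjusted p 0.796). For L-AOPP with IAA against mock it was 0.96 (-0.10 to 2.03, adjusted p 0.331). The first of these was -0.088 without mock SAM replicate 1 and 1.15 without mock SAM replicate 3, and the third was 0.43 and 1.67 without those arrays. On L-AOPP with IAA replicate 2, where CML38 and AT4G24110 were lowest of that group, ZAT10 was highest. The order by mean signal was whole plants, L-AOPP with IAA, L-AOPP and mock SAM, and the 3 SAM groups overlapped with each other.

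**Figure D2:**
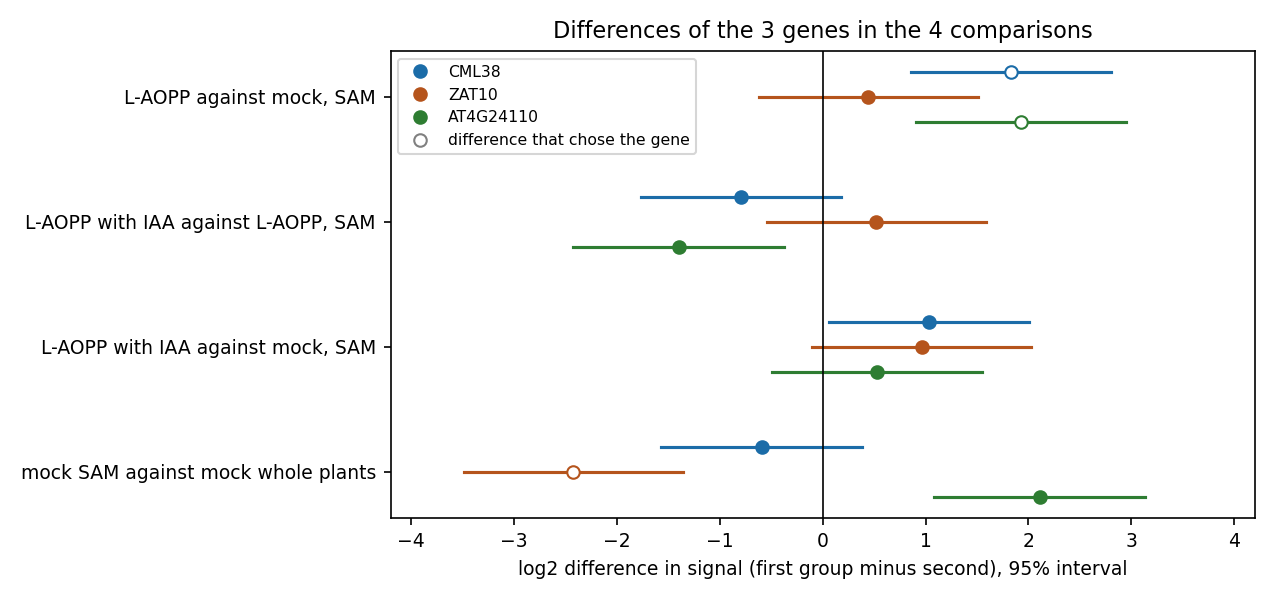
Log2 differences in signal (first group minus second) of the 3 genes in the 4 comparisons with 95% intervals from the limma fit, where open points mark the differences that chose a gene. Of the 9 filled points, AT4G24110 in mock SAM against whole plants was the only difference that passed over all tested probe sets.

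CML38 and AT4G24110 are both on a list of genes recalled as the core response to low oxygen in Arabidopsis. The array annotation named 23 of the 46 others, and 19 of these had signals high enough to be tested. None of the 19 passed for L-AOPP against mock with limma, where 2.56% of all tested probe sets passed in either direction. An unadjusted p under 0.05 (limma) was seen in 8, all of them higher with L-AOPP. The share of all tested probe sets at that unadjusted level was not counted, for this list or any other. Of the 19, 17 had a positive difference, with a median of 0.51 against -0.01 over all tested probe sets, and 12 lay higher with no overlap, against 10.6% of all tested probe sets. Without mock SAM replicate 3, 15 were positive, the median was 0.41 and 0 passed. With the GAPDH ratio as a covariate, 16 were positive, the median was 0.42 and 0 passed. The 4 list genes that were named but too dim to test were AT1G19530, AT3G29970, FHL and AT5G10040.

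Among these 19 genes, AT1G33055 and AT3G10040 had the largest differences. AT1G33055 had signals of 221.1, 361.0 and 514.8 in mock SAM and 803.7, 857.4 and 940.6 with L-AOPP (log2 1.33 ± 0.34 SE, adjusted p 0.0541). AT3G10040, or HRA1, encodes a transcription factor that restrains the group VII factors in low oxygen. Its signals were 279.0, 457.8 and 343.4 in mock SAM and 805.1, 803.1 and 894.7 with L-AOPP (1.24 ± 0.34, adjusted p 0.0649). In both genes every L-AOPP array lay above every mock array. AT5G47060 had the lowest adjusted p on the list, 0.0523, with a log2 difference of 0.53 ± 0.14. AT2G17850 (1.23 ± 0.47), AT4G10270 (0.97 ± 0.30) and AT3G27220 (0.88 ± 0.30) had adjusted p-values of 0.194, 0.104 and 0.147. When only the L-AOPP and mock arrays were fitted, 6 of the 19 passed as higher: AT1G33055, AT2G17850, AT3G10040, AT3G27220, AT4G27450 and AT5G47060. In that fit 201 of 15922 tested probe sets passed as higher. PDC2, a pyruvate decarboxylase gene of ethanol fermentation, had a difference of 0.03 ± 0.11 (adjusted p 0.932).

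**Figure D3:**
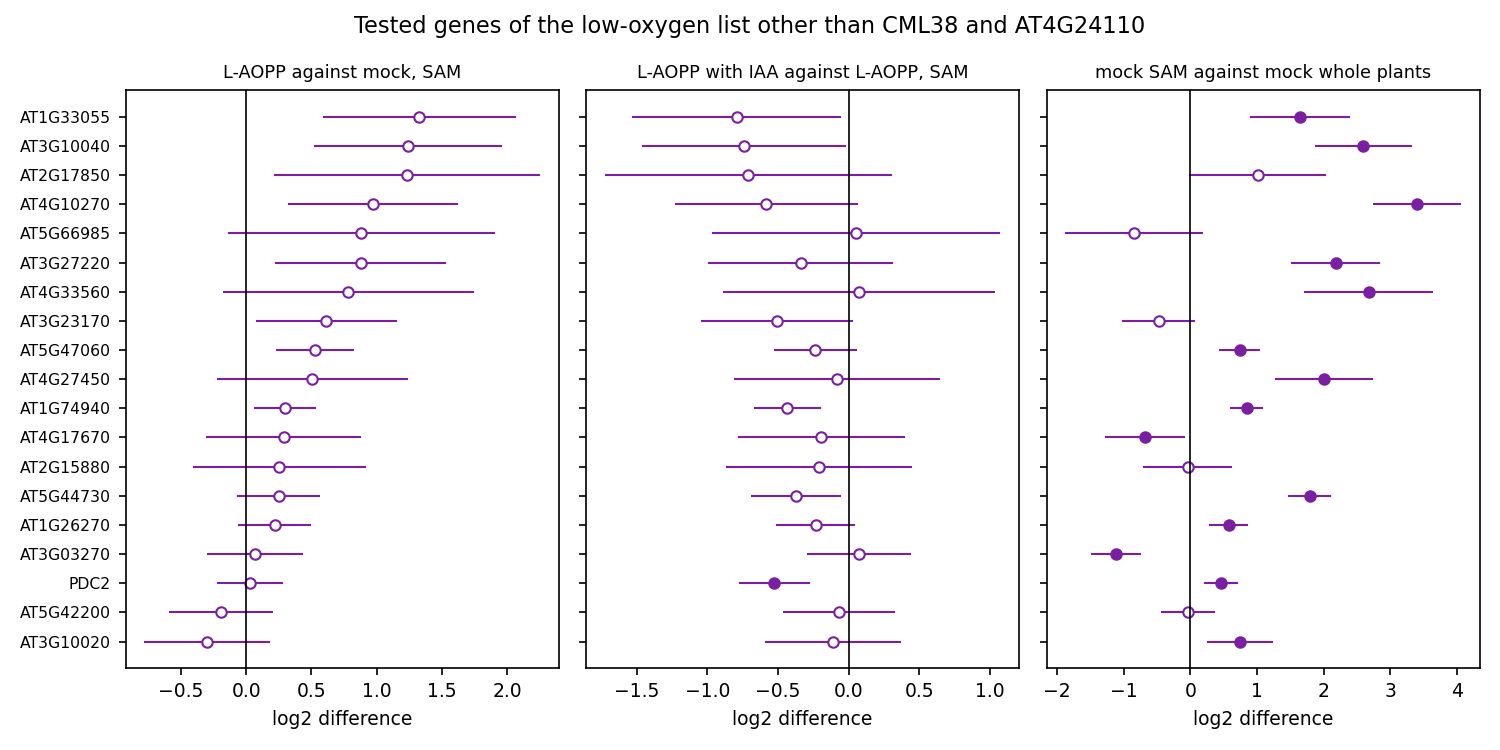
Log2 differences with 95% intervals of the 19 tested low-oxygen list genes other than CML38 and AT4G24110 in 3 comparisons, where filled points passed at an adjusted p below 0.05. Of the 19 genes, 17 lie to the right of 0 for L-AOPP against mock with none filled, and 12 are filled and to the right for mock SAM against whole plants.

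With IAA added to L-AOPP, 16 of the 19 list genes had a negative difference, with a median of -0.24 against 0.00 over all tested probe sets. Without L-AOPP with IAA replicate 2, 8 of the 19 had a positive difference. The L-AOPP arrays here are those on which 17 of the 19 were higher than in mock, and the list was chosen with earlier results known. The summed signal of the 4 shoot meristem genes moved with added IAA too, from 1344 to 1389 with L-AOPP to 1462 to 1787 with IAA. All 4 had a positive difference (0 passed with limma, 2 at an unadjusted p under 0.05). The part of that sum in the result was not tested. PDC2 alone passed, from 675.1, 749.5 and 643.5 with L-AOPP to 565.8, 427.7 and 448.3 with IAA (log2 -0.53 ± 0.11 SE, adjusted p 0.0437), and 0.584% of tested probe sets passed as lower. It also fell against mock SAM, where its signals were 603.7, 725.1 and 703.2 (-0.50 ± 0.11, adjusted p 0.0315), where 1.82% of tested probe sets passed as lower. The groups did not overlap in either comparison, as was true of 9.06% and 11% of tested probe sets in this direction. The first call ended without L-AOPP with IAA replicate 2 or 3 (adjusted p 0.159 and 0.169) and without L-AOPP replicate 1, 2 or 3 (0.138, 0.223 and 0.0876). The second ended without L-AOPP with IAA replicate 2 or 3 (0.117 and 0.0904) and without mock SAM replicate 2 or 3 (0.0689 and 0.0999).

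The low-oxygen genes were mostly at their lowest of the group on L-AOPP with IAA replicate 2. Of the 19 list genes, 15 had the lowest signal of their group on that array and 0 the highest, whereas 33.6% of all tested probe sets had their lowest there. Other arrays were uneven as well: L-AOPP replicate 1 held the lowest signal for 13 of the 19, L-AOPP replicate 3 the highest for 13 and mock SAM replicate 1 the lowest for 11. Relative to each gene's mean over the 9 SAM arrays, the median of the 19 was -0.56 on that array, 0.20 on replicate 1 and -0.04 on replicate 3. The median of all tested probe sets was 0.00, -0.01 and 0.02 on the same arrays. AT3G10040 had signals of 843.3, 321.0 and 457.3 on replicates 1 to 3, and AT1G33055 had 832.6, 293.2 and 509.5. AT2G17850 was at 224.4, 41.5 and 206.0, below all of its mock SAM signals (67.6, 87.4 and 109.0) on replicate 2.

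The RNA quality measures of that array lay within the range of its group. Its 25S rRNA signal was 8881, between 8485 and 10331, and its GAPDH ratio 1.27, between 1.24 and 1.36 on the other 2 arrays. The summed signal of the 4 shoot meristem genes was 1787 on that array and 1462 and 1637 on the other 2, that of 5 photosynthesis genes 43689 against 39170 and 39958, and that of 2 root genes 60.7 against 70.7 and 71.5. The part of these in the spread was not tested. Without that array, the median of the 19 low-oxygen genes was -0.12 for added IAA, with 0 passing, where 81 of 15922 tested probe sets passed. Against mock the median was 0.32, and 3 passed as higher (AT2G17850, AT4G33560 and AT5G66985), where 77 of 15922 tested probe sets did.

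**Figure D4:**
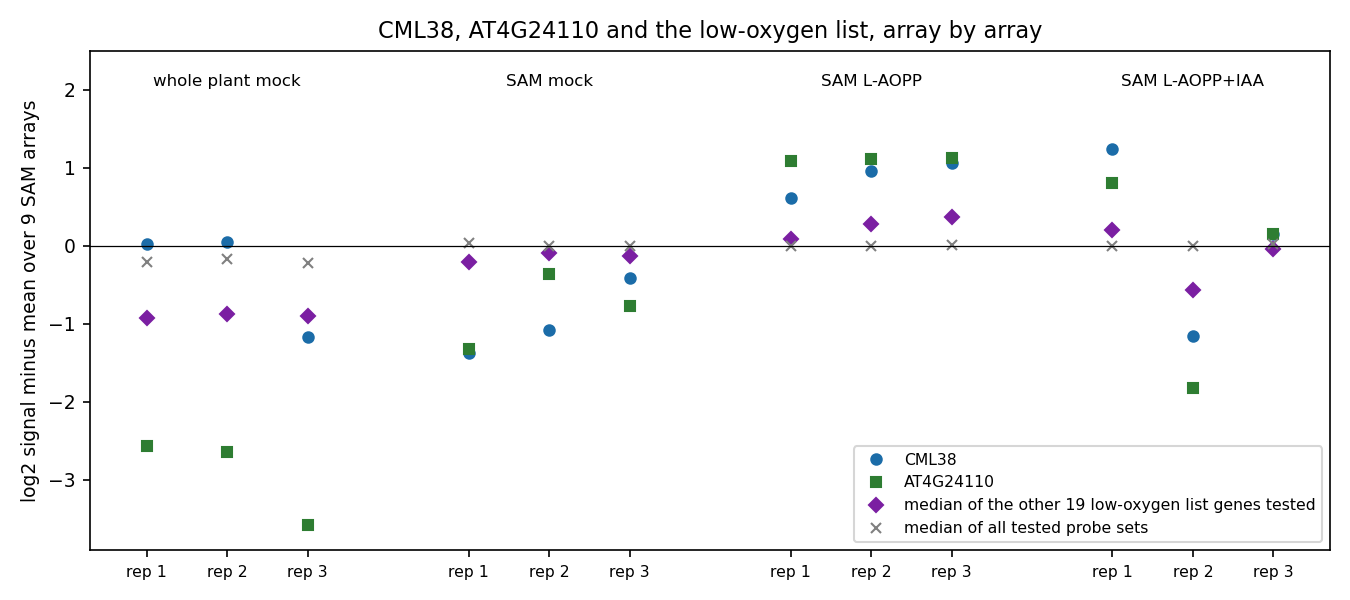
Log2 signal on each array minus the mean over the 9 SAM arrays for CML38, AT4G24110, the median of 19 other low-oxygen list genes and the median of all tested probe sets, with the 4 groups side by side. On L-AOPP with IAA replicate 2, CML38 (-1.16), AT4G24110 (-1.82) and the list median (-0.56) lie below the median of all probe sets. All 3 lie above it on the L-AOPP arrays, where the position of CML38 and AT4G24110 follows from how they were chosen.

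In mock SAM against whole plants, 12 of the 19 low-oxygen list genes passed as higher and 2 as lower, where 42.6% and 25% of all tested probe sets did, with a median of 0.74 against 0.21. Without mock SAM replicate 3 these counts were 12 and 1. AT4G10270 rose from 97.7, 158.0 and 142.8 in whole plants to 760.0, 1664.0 and 2058.7 in mock SAM (log2 3.40 ± 0.30 SE, adjusted p 8.04e-08). AT4G33560 (2.67 ± 0.45), AT3G10040 (2.59 ± 0.34) and AT3G27220 (2.18 ± 0.30) followed, and the groups did not overlap in any of these 4, as in 43.2% of tested probe sets that lay higher. AT3G03270 (-1.11 ± 0.17) and AT4G17670 (-0.68 ± 0.28) were lower, and the call of AT4G17670 (adjusted p 0.0395) was lost without mock SAM replicate 3 (0.230) and without whole plant replicate 1 (0.0865) or 2 (0.118). The summed signal of 5 photosynthesis genes moved with this comparison, from 101994 to 117324 in whole plants to 42212 to 44303 in mock SAM, and so did the GAPDH ratio. With that ratio as a covariate 6 list genes passed as higher and 1 as lower, where 3965 and 2291 of 15922 tested probe sets did. AT4G33560 did not pass with the covariate (limma, 1.71, adjusted p 0.158).

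The list of calmodulin-like genes held 36 besides CML38. Of these, 26 were named on the array and 11 could be tested. For L-AOPP against mock 0 of the 11 passed, 3 had an unadjusted p under 0.05 (limma), and their median was -0.17. The smallest adjusted p-values were those of AT2G41090 (log2 0.45 ± 0.13 SE, adjusted p 0.0891) and CML42 (-0.54 ± 0.17, adjusted p 0.109). None passed for added IAA (2 with an unadjusted p under 0.05) or for L-AOPP with IAA against mock (2). The closest listed relatives, CML37 and AT1G76640 (CML39), which lies next to CML38 in assembly TAIR10.1, were too dim to test. CML37 had signals of 0.5 to 4.7 on 10 of the 12 arrays, 27.3 on L-AOPP replicate 2 and 22.6 on whole plant replicate 2. AT1G76640 was above the floor only on L-AOPP replicate 1, at 21.5.

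In mock SAM against whole plants 6 of the 11 calmodulin-like genes were lower and 2 higher, where 25% and 42.6% of all tested probe sets were, with a median of -0.67 against 0.21. All of these calls were kept without mock SAM replicate 3. CML23 fell from 135.4, 154.3 and 167.1 to 20.5, 15.2 and 23.7 (log2 -2.96 ± 0.43 SE, adjusted p 1.73e-05). AT3G03000 (-1.25 ± 0.30) and CML42 (-1.11 ± 0.17) also fell, and AT3G10190 (1.46 ± 0.25) and AT1G18210 (0.33 ± 0.09) rose. With the GAPDH ratio as a covariate AT3G03000, AT3G10190, AT1G18210 and AT2G41090 did not pass (adjusted p 0.169, 0.251, 0.0564 and 0.794), so that neither higher call was kept, and AT2G41090 turned from -0.44 to 0.087. AT1G18210 did not pass after median centring either (0.0856).

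Of the zinc finger family of ZAT10, 6 of 17 other listed genes were named and 4 tested. None passed in the 3 SAM comparisons, with 0, 0 and 1 at an unadjusted p under 0.05 (limma). Against whole plants AT2G28200 was lower in mock SAM (log2 -0.94 ± 0.13 SE, adjusted p 8.58e-06) and AT3G60580 higher (2.07 ± 0.54, adjusted p 0.00314; 0.0709 with the GAPDH ratio as a covariate). Of 28 listed genes of other rapidly induced stress factors 4 were tested, and 3 of these were lower in mock SAM. In this comparison 25% of all tested probe sets passed as lower and 42.6% as higher. WRKY6, a transcription factor of senescence and defence, fell from 196.3, 227.5 and 189.1 to 42.5, 45.5 and 71.2 (-1.98 ± 0.26, adjusted p 6.62e-06). AT4G29780 fell by 0.87 ± 0.23 and AT5G61590 by 0.35 ± 0.11, the latter not without mock SAM replicate 2 (adjusted p 0.0524) or whole plant replicate 1 (0.0715), nor with the GAPDH ratio as a covariate (0.105). In the 3 SAM comparisons 0 of the 4 passed, with 0, 0 and 1 at an unadjusted p under 0.05.

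The cold and drought list had 3 tested genes of 22. COR15A, for a chloroplast protein that protects membranes on freezing, fell with added IAA from 566.9, 538.3 and 431.5 to 221.2, 195.8 and 83.8 (log2 -1.73 ± 0.26 SE, adjusted p 0.00827). Its groups did not overlap, as in 9.06% of tested probe sets that lay lower with added IAA, and 0.584% passed as lower. It was also lower than in mock SAM, at 416.6, 441.8 and 472.1 (-1.53 ± 0.26, adjusted p 0.00697; 0.170 with the GAPDH ratio as a covariate). For L-AOPP with IAA against mock, 1.82% of tested probe sets passed as lower. Between L-AOPP and mock the difference of COR15A was 0.20 ± 0.26 and did not pass. Without an intensity trend the first of these calls ended (adjusted p 0.0554). COR47, a dehydrin gene, was lower with L-AOPP and IAA than in mock (-0.53 ± 0.13, adjusted p 0.0366), a call lost without any 1 array but L-AOPP with IAA replicate 1 (0.0619 to 0.119), without the intensity trend (0.103), with only the 2 groups compared (0.125) and under the GAPDH covariate (0.333). COR15B did not pass in a SAM comparison. In mock SAM against whole plants COR15A was higher (0.81 ± 0.26, adjusted p 0.0123, with 0.0510 after quantile normalization and 0.118 with the covariate). COR47 (-2.41 ± 0.13) and COR15B (-1.06 ± 0.23) were lower there. In this comparison 42.6% of tested probe sets passed as higher and 25% as lower. The jasmonate and wound list had 0 of 30 genes and the oxygen-sensing list 0 of 11 named on the array, and the 1 named gene of the heat list was too dim to test.

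Genes with the signal pattern most like each of the 3 were found by Pearson correlation of log2 signal among 8774 other tested probe sets with exactly 1 gene. These values describe likeness over arrays that share groups and carry no test. Over all 12 arrays the 4 most like AT4G24110 were AT1G33055 (r = 0.97), AT3G27220 (0.95), AT3G10040 (0.95) and AT1G26270 (0.94), and all 4 are on the low-oxygen list. Over the 9 SAM arrays they were AT1G63220 (0.96), AT3G10040 (0.96), AT4G12750 (0.94) and AT2G17850 (0.93), 2 of them on the list. For comparison, 99% of the probe sets had r below 0.87 over 12 arrays and below 0.80 over 9.

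For CML38 the nearest over the 9 SAM arrays were AT1G33055 (r = 0.97), AT1G63220 (0.96), AT5G54580 (0.94) and AT1G06510 (0.93), and AT4G24110 ranked 6th (0.92). Both CML38 and AT4G24110 were chosen by their difference between L-AOPP and mock, whose arrays are among these 9. A high correlation between these genes is therefore partly fixed by the choice. Over 12 arrays the nearest were AT3G18930 (0.85), AT4G01890 (0.85), AT1G01930 (0.81) and AT3G49160 (0.80), 0 of them on the list, and AT4G24110 ranked 26th (0.68). The rank thus changed with the whole plant arrays, where the mean of AT4G24110 was lowest and that of CML38 was not. For ZAT10 over 12 arrays the nearest were AT5G47610 (0.91), HEMB1 (0.91), AT4G33660 (0.91) and AT2G34060 (0.91). Over the 9 SAM arrays they were AT2G44065 (0.90), AT4G38940 (0.90), AT1G19170 (0.90) and AT1G31335 (0.89). No gene was among the 4 nearest to ZAT10 in both sets of arrays.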

How the data were processed

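Arrays of biotin-labelled cRNA from 12 samples in 4 groups of 3 were analysed. Per probe set, the authors deposited 1 signal intensity on a linear scale, which MAS5 produced per the submitters' processing notes, with no version given. The deposited intensity of each array, without its lowest and highest 2%, had a mean of 500.1. No further scaling was applied. After log2 and removal of 64 control probe sets, the 30% of the other 22746 with the lowest mean were left out (6824), and 15922 were tested with limma 3.58.1 in R 4.3.3 (lmFit, eBayes with an intensity trend, 1 coefficient per group, 8 residual degrees of freedom). Tests were two-sided, with Benjamini-Hochberg adjustment over all tested probe sets, and passed below 0.05. Counts of list genes at an unadjusted p under 0.05 have no share of all tested probe sets to set beside them. The code was tested on simulated data. The table holds no depth, and 3 arrays per group limit the precision. The labels do not tell whether replicates are separate cultures, and the p-values therefore cover only the spread among these arrays, which may be technical.

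Genes came from the platform annotation, which can be old: 13513 probe sets had exactly 1 gene, 503 several and 8730 were not listed. Locus codes and names came from the gene table of TAIR10.1, which matched 13436. Named genes were the 3 members, up to 4 passing genes per list and comparison (or the 2 with the smallest p), and the 4 probe sets most like each member over 12 and over 9 arrays. AT4G27450, AT5G66985, CML37, AT1G76640 and the 4 dim low-oxygen genes were named after their values were seen. Lists were recalled without a source at hand, and members and lists were chosen with earlier results of these data known. Each tested difference of the 3 genes shares a group of arrays with the one that chose the gene, except that of ZAT10 for added IAA. Of 12 lists, those for oxygen sensing, wounding and jasmonate, heat, and vasculature had no tested gene (vasculature 0 of 11 named). Same-numbered replicates had deviations correlated at -0.19 to 0.11, which does not settle whether the numbers pair the samples. The main fit did not pair them. Settings tried in turn were median centring, quantile normalization, a pseudocount of 28.4 (percentile 25 of all signals), a floor of 19.4 (percentile 20), leaving out the lowest 50% or no probe set, no intensity trend, only the 2 groups compared, the replicate number as a block, the GAPDH ratio as a covariate, and leaving out each array. Rerunning these settings on the low-oxygen counts and on single list genes was chosen after seeing the data. No sequence is shown.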

Additional observations from a re-analysis of the deposited data

How the results depend on the processing

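Of 135 recomputed differences of the 3 genes that have a test, 130 kept direction and side of the threshold. Of 45 that chose a gene and have none, 43 moved by less than the spread between replicates. Among the differences with a test, only AT4G24110 in mock SAM against whole plants passed in the main fit. For the rest, keeping the side of the threshold meant not passing again, which says little about how stable their size was. ZAT10 in mock SAM against whole plants, which has no test, was -1.61 with the pseudocount and -3.88 with the GAPDH covariate, and AT4G24110 there was 2.61 with that covariate (adjusted p 0.0564). Leaving out 1 array moved CML38 with L-AOPP and IAA from -1.37 to -0.18 against L-AOPP, AT4G24110 with L-AOPP and IAA from -1.94 to -0.63 against L-AOPP and from -0.015 to 1.30 against mock, CML38 against mock from 0.46 to 1.65, and ZAT10 for L-AOPP against mock from -0.088 to 1.15. The signs of AT4G24110 and ZAT10 turned there, when replicate 1 of L-AOPP with IAA and replicate 1 of mock SAM were left out.

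Of all probe sets, 408 passed for L-AOPP against mock, 122 without the intensity trend, 47 with the GAPDH covariate and 89 to 586 without 1 array. For added IAA 137 passed, 85 with the lowest 50% left out, 23 without the trend, 66 with only the 2 groups compared, 70 with the covariate and 28 to 213 without 1 array. For L-AOPP with IAA against mock 484 passed, 175 without the trend, 134 with only the 2 groups, 7 with the covariate and 169 to 531 without 1 array. For mock SAM against whole plants 10760 passed and 6256 with the covariate, where AT2G41090 turned to 0.087 (adjusted p 0.794). The replicate block gave 287, 100, 357 and 10648 and changed no call of the 3 genes.

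Low-oxygen list genes passing for L-AOPP against mock numbered 0, but 1 after quantile normalization or median centring, 2 with the floor or the 50% filter, 3 with the pseudocount, 6 with only the 2 groups compared and 0 to 1 without 1 array. For added IAA the 1 call became 0 after quantile normalization, median centring, no filter, no trend, only 2 groups, the replicate block or the covariate, and 0 to 3 without 1 array. Against mock the 1 call became 0 with no trend, only 2 groups, the replicate block or the covariate, and 0 to 3 without 1 array. For mock SAM against whole plants the covariate left 7 of 14. Causes of these shifts were not tested. Without detection calls, dim signals such as those of ZAT10 in mock SAM have no stated lower limit.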
